A study of Mus musculus with 8 samples.

Results

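The data described here are the RNA levels of 9 genes, *Ngfr* and 8 signals that the stromal cells of a hematopoietic niche are known to give to progenitors: *Cxcl12*, *Kitl*, *Il7*, *Vcam1*, *Csf1*, *Bmp4*, *Tgfb2* and *Il6*. They are 9 of the 23284 gene symbols in the deposited expression tables, and all 9 symbols were found there. They were selected on earlier results of these data, chiefly their CPM in control and *Pcgf1*-KO IdHPCs, so that in IdHPCs their values are a description and carry no p-value. The study asked how PCGF1, a subunit of the Polycomb complex PRC1.1, holds the lineage choice of hematopoietic progenitors, and the RNA-seq part covers 2 control and 2 *Pcgf1*-KO libraries of IdHPCs and the same number of LMPPs, 8 in all. All are of B6CBAF1/J background, bone marrow source and passage 15-18 by their labels, and the labels give growth with TSt4 stromal cells and IL-7, SCF and Flt3 ligand for every library.

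IdHPCs are progenitor lines made from lineage-negative Sca-1+ Kit+ cells (LSKs) that carry the E-protein inhibitor Id3 from a virus and are kept on TSt-4 stromal feeder cells. LMPPs are lymphoid-primed multipotent progenitors, for which IdHPCs serve as a substitute. Control IdHPCs are labelled *Pcgf1* fl/fl and *Pcgf1*-KO IdHPCs *Pcgf1* -/-. In the KO lines the floxed alleles were deleted through ERT2-Cre by treatment with 4-hydroxytamoxifen (4-OHT) for 4 days, and in another experiment of the study control IdHPCs of the same kind received ethanol instead. The treatment of the control IdHPCs of these libraries is not given in the sources used here. LMPP controls were *Pcgf1* fl/fl without Cre, LMPP knockouts were ERT2-Cre;*Pcgf1* fl/fl, and both were treated with 4-OHT. The RNA of an IdHPC library can therefore hold RNA of feeder cells. In bulk RNA, fewer cells of a type and less RNA per cell cannot be told apart, and the same holds for more feeder cells and more RNA per feeder cell.

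The stroma of the marrow anchors and feeds early blood cells. CXCL12 retains progenitors through CXCR4, KIT ligand (the product of *Kitl*, also called SCF) acts on KIT, IL-7 drives early B and T cell growth through IL7R, VCAM1 holds cells by the integrin alpha4 (*Itga4*), and CSF1 is the growth factor of macrophages. BMP4 and TGFB2 belong to the TGF-beta family, and IL-6 is an inflammatory cytokine. NGFR (also called CD271) is the low-affinity receptor of neurotrophins and a surface marker of mesenchymal stromal cells and of Schwann cells. SCF and IL-7 were also added to the cultures as proteins.

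The sequence of *Ngfr* is shown first because its reads lay on part of the gene only. *Ngfr* lies at chr11:95430132-95449049 on the minus strand (NCBIM37, the mm9 build), and its annotated transcript has 6 exons. Exon 2, 142 bases of coding sequence at chr11:95442267-95442408, held between 70.2% and 74.5% of the reads of the gene in each IdHPC library. It stands here in capitals, after the last 50 bases of exon 1 (chr11:95448798-95448847) in lower case, on which, as on the rest of exon 1, no read was counted. In the second line the last 50 bases of exon 4 (chr11:95435505-95435554), which had reads, stand in capitals and are followed by the first 50 bases of exon 5 (chr11:95433245-95433294), which had none. Both are from the NCBIM37 reference genome, read from 5′ to 3′ on the minus strand.
*Ngfr* exon 1 end and exon 2: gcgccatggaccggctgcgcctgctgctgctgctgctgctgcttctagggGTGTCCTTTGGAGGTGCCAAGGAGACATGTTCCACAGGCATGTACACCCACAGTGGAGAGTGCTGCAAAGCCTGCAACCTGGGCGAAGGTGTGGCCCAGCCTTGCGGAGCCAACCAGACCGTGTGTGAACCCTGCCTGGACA
*Ngfr* exon 4 end and exon 5 start: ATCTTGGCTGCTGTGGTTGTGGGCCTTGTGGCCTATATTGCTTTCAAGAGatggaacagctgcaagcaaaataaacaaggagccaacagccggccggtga

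The values are CPM, reads relative to the library total, that the authors deposited per exon. Exons identical to the one listed before them were counted once and the rest summed per gene, which left between 15722759 and 25302206 reads per IdHPC library and between 9618849 and 12578784 per LMPP library. *Pcgf1*-KO 2 of the IdHPCs stood apart: its median gene carried 38.0% of the reads on the 3′-terminal exon, against 26.7% to 28.7% in the other 3 IdHPC libraries (9379 genes). *Pcgf1* exons 2 to 7 held 193 and 173 reads in the control IdHPCs and 15 in each *Pcgf1*-KO library, in the direction of their labels. In LMPPs these exons held 84 reads in the library labelled control 1, 0 in the one labelled control 2, 76 in the one labelled *Pcgf1*-KO 1 and 0 in the one labelled *Pcgf1*-KO 2, so that 2 labels go against them. IdHPCs expressed the progenitor markers *Flt3* (425 and 631 CPM in controls, 432 and 459 in *Pcgf1*-KO) and *Cd34* (108, 105, 247 and 177 CPM in the same order), whereas the stromal marker *Col1a1* reached 1131 and 1100 CPM in controls.

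Reads assigned to *Ngfr*, the receptor, were fewer in control than in *Pcgf1*-KO IdHPCs. It had 15.9 CPM in control 1 and 7.88 in control 2, from 519 and 275 reads. *Pcgf1*-KO 1 held 55.9 CPM and *Pcgf1*-KO 2 held 50.5, from 1591 and 1074 reads. Both *Pcgf1*-KO libraries were above both controls and close to each other, while the controls lay farther apart. The log2 fold change, on the log2(CPM + 1) scale used throughout, was 2.14, and it ran from 1.61 to 2.68 over the 4 pairs of 1 *Pcgf1*-KO and 1 control library. Such a scale understates the change of genes with few counts.

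The reads of *Ngfr* did not cover its transcript. Exon 2 had 378 and 193 reads in control IdHPCs and 1181 and 800 in the *Pcgf1*-KO libraries. Exon 3, of 360 bases, had 100, 60, 266 and 169 in the same order, and exon 4, of 253 bases, had 41, 22, 144 and 105. All 4 libraries had 0 reads on exon 1 (252 bases), on exon 5 (161 bases) and on the last exon, which with 2278 bases is the longest, so that 78.1% of the exon length had no read. All 3 covered exons had more reads in both *Pcgf1*-KO libraries than in both controls, and the share of exon 2 differed little between controls (72.8% and 70.2%) and *Pcgf1*-KO (74.2% and 74.5%). Their GC content was 59.9%, 63.1% and 59.7%, that of exons 5 and 6 was 59.0% and 56.4%, and exon 1 had 70.2%. No other annotated gene overlaps an exon of *Ngfr*.

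The libraries were made from poly(A) RNA, in which the last exon usually has reads. Of 7136 genes with at least 275 reads in all 4 IdHPC libraries and at least 3 distinct exons, 6 (0.0841%) had no read on the exon at the 3′ end in any of them, and *Ngfr* was the only 1 (0.0140%) with none on either end exon. Whether these reads came from a transcript of *Ngfr* or from another RNA that aligns to exons 2 to 4 was not tested, so every *Ngfr* value here, that of the whole gene included, is one of reads on these 3 exons and not a measure of the receptor's full transcript. Divided by their 755 bases, *Ngfr* had 21.0 and 10.4 CPM per kb in the controls and 74.0 and 66.9 in *Pcgf1*-KO. Divided by all 3446 bases of its exons it had 4.61, 2.29, 16.2 and 14.7.

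**Figure D1:**
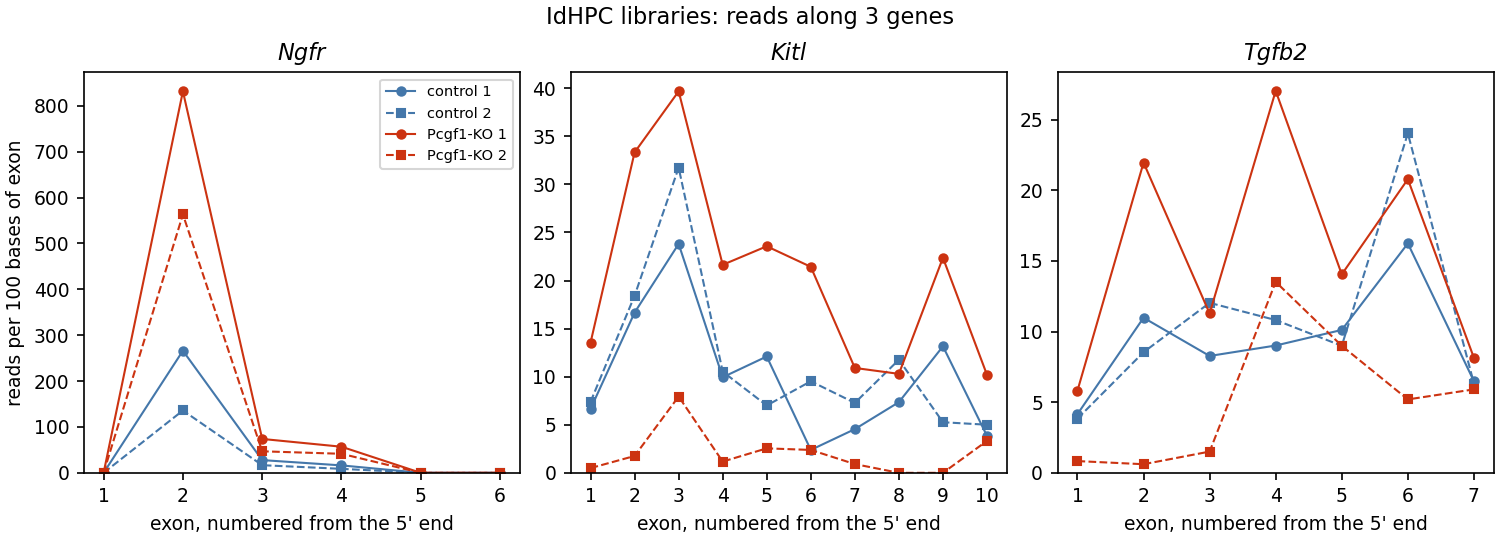
Reads per 100 bases of each exon of *Ngfr*, *Kitl* and *Tgfb2* (exons numbered from the 5′ end) in the 4 IdHPC libraries, controls in blue and *Pcgf1*-KO in red, replicate 1 as circles with solid lines and replicate 2 as squares with dashed lines. Reads on *Ngfr* are limited to exons 2 to 4 in all 4 libraries, and *Pcgf1*-KO 2 is lowest on exons 1 to 3 of *Kitl* and *Tgfb2*. The reads are not scaled to the library total.

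Among the ligands, the chemokine *Cxcl12* (chr6:117118553-117131385, plus strand) had the most reads. It had 133.9 and 64.3 CPM in control IdHPCs and 545.1 and 224.1 in *Pcgf1*-KO 1 and 2. Both *Pcgf1*-KO libraries were above both controls, but on the log2 scale the 2 libraries of each group lay farther from each other than *Pcgf1*-KO 2 did from control 1. The log2 fold change was 1.90, from 0.74 to 3.06 over the pairs. Its listed exons overlap, so that a share of its reads stands in the sum more than once. The first exon had 247, 109, 850 and 187 reads and the longest last exon, of 5282 bases, had 1118, 591, 4001 and 1335 (control 1, control 2, *Pcgf1*-KO 1, *Pcgf1*-KO 2). Both were highest in *Pcgf1*-KO 1.

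*Csf1* (chr3:107543966-107563387, minus strand) had 30.8 and 20.7 CPM in control IdHPCs and 64.1 and 42.4 in *Pcgf1*-KO. The pairs of libraries did not overlap, and the log2 fold change was 1.02 (0.45 to 1.58). By splicing within its exon 6, *Csf1* can make a secreted or a cell-surface protein. The 885 bases found only in the long form of that exon had 20.0 and 18.3 reads per 100 bases in the controls and 45.1 and 22.3 in *Pcgf1*-KO, and the part shared with the short form had 27.5, 20.6, 60.3 and 26.7. These reads are not scaled to the library total, so they compare parts of the gene within a library and not the groups. As for *Cxcl12*, overlapping exons leave a share of the *Csf1* reads in the sum more than once. Of its alternative last exons, the one of 2098 bases had 408, 297, 635 and 371 reads and the one of 227 bases 9, 4, 7 and 11. The long form of exon 6 and the long last exon thus carried most reads in both groups.

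*Kitl* (chr10:99478264-99563047, plus strand) was the only member above the filter whose groups overlapped. It had 8.82 and 9.97 CPM in control IdHPCs, 24.4 in the first and 7.72 in the other *Pcgf1*-KO library. One *Pcgf1*-KO library was thus the highest of the 4 and the other the lowest. The log2 fold change was 0.52, from -0.33 to 1.37 over the pairs. *Pcgf1*-KO 2 had 89.0% of its *Kitl* reads on the last exon, of 4396 bases, against 58.7%, 63.2% and 64.6% in control 1, control 2 and *Pcgf1*-KO 1. Without that exon 119 and 128 reads were left in the controls, 246 in *Pcgf1*-KO 1 and 18 in *Pcgf1*-KO 2, and the log2 fold change was -0.14. Whether the 3′ share of *Pcgf1*-KO 2 made part of its low *Kitl* value was not tested.

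*Kitl* is made as a membrane protein, and its alternative exon 6 carries a site at which the soluble factor is released. The exon is shown in capitals between the last 30 bases of exon 5 and the first 30 of exon 7, and lies at chr10:99543491-99543574 on the plus strand of NCBIM37.
*Kitl* exon 6 with its neighbors: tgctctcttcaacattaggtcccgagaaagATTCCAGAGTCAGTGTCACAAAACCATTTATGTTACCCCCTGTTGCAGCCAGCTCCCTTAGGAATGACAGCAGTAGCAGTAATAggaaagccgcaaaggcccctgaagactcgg
Exon 6 had 2 and 8 reads in control IdHPCs, 18 in *Pcgf1*-KO 1 and 2 in *Pcgf1*-KO 2. Exon 5 had 19, 11, 37 and 4 reads over 157 bases, and exon 7 had 5, 8, 12 and 1 over 110 bases. Some of these counts are under the floor of 3 reads, and use of the exon was not compared between the groups.

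*Il7* (chr3:7572036-7613722, minus strand) was rare and differed between the groups with little spread. It had 0.429 and 0.401 CPM in control IdHPCs, from 14 reads in each, and 2.07 and 1.79 in *Pcgf1*-KO, from 59 and 38 reads. The groups stood well apart, with a mean CPM 4.65 times higher in *Pcgf1*-KO and a log2 fold change of 1.05 (0.96 to 1.13). The reads were on all 5 exons in both *Pcgf1*-KO libraries. *Il6* (chr5:30339701-30346508, plus strand) had 0 and 2 reads in control IdHPCs and 4 and 2 in *Pcgf1*-KO. Since 3 reads, the floor taken here for a single library, correspond to 0.0860 to 0.141 CPM in IdHPCs, no direction is given for *Il6*.

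*Vcam1* (chr3:115812938-115832606, minus strand), the adhesion molecule, had 0.704 and 0.430 CPM in control IdHPCs (23 and 15 reads) and 2.84 and 1.32 in *Pcgf1*-KO (81 and 28 reads). Both *Pcgf1*-KO libraries were above both controls, and the log2 fold change was 0.94 (0.44 to 1.43). In the TGF-beta family, *Bmp4* (chr14:47003195-47010344, minus strand) had 21.3 and 9.80 CPM in control IdHPCs and 39.6 and 25.4 in *Pcgf1*-KO, with a log2 fold change of 1.08 (0.25 to 1.91). Control 1 and *Pcgf1*-KO 2 were close neighbors in *Bmp4*, and without its last exon they traded places (8.88 and 8.61 CPM). The last exon of *Bmp4* overlaps *Gm15217* on the other strand, and reads of the overlapping part cannot be told apart without strand, which the sources used here do not give.

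*Tgfb2* (chr1:188447065-188529871, minus strand) had the smallest log2 fold change among the members above the filter. It had 9.31 and 8.83 CPM in control IdHPCs, 15.0 in *Pcgf1*-KO 1 and 9.32 in the other. *Pcgf1*-KO 2 lay on the level of control 1, and the log2 fold change of 0.35 (0.00 to 0.70) came from *Pcgf1*-KO 1. As for *Kitl*, *Pcgf1*-KO 2 had more of its reads on the last exon (72.2%, against 46.2% to 51.6% in the other 3), and without that exon the log2 fold change was 0.06 with overlapping groups.

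**Figure D2:**
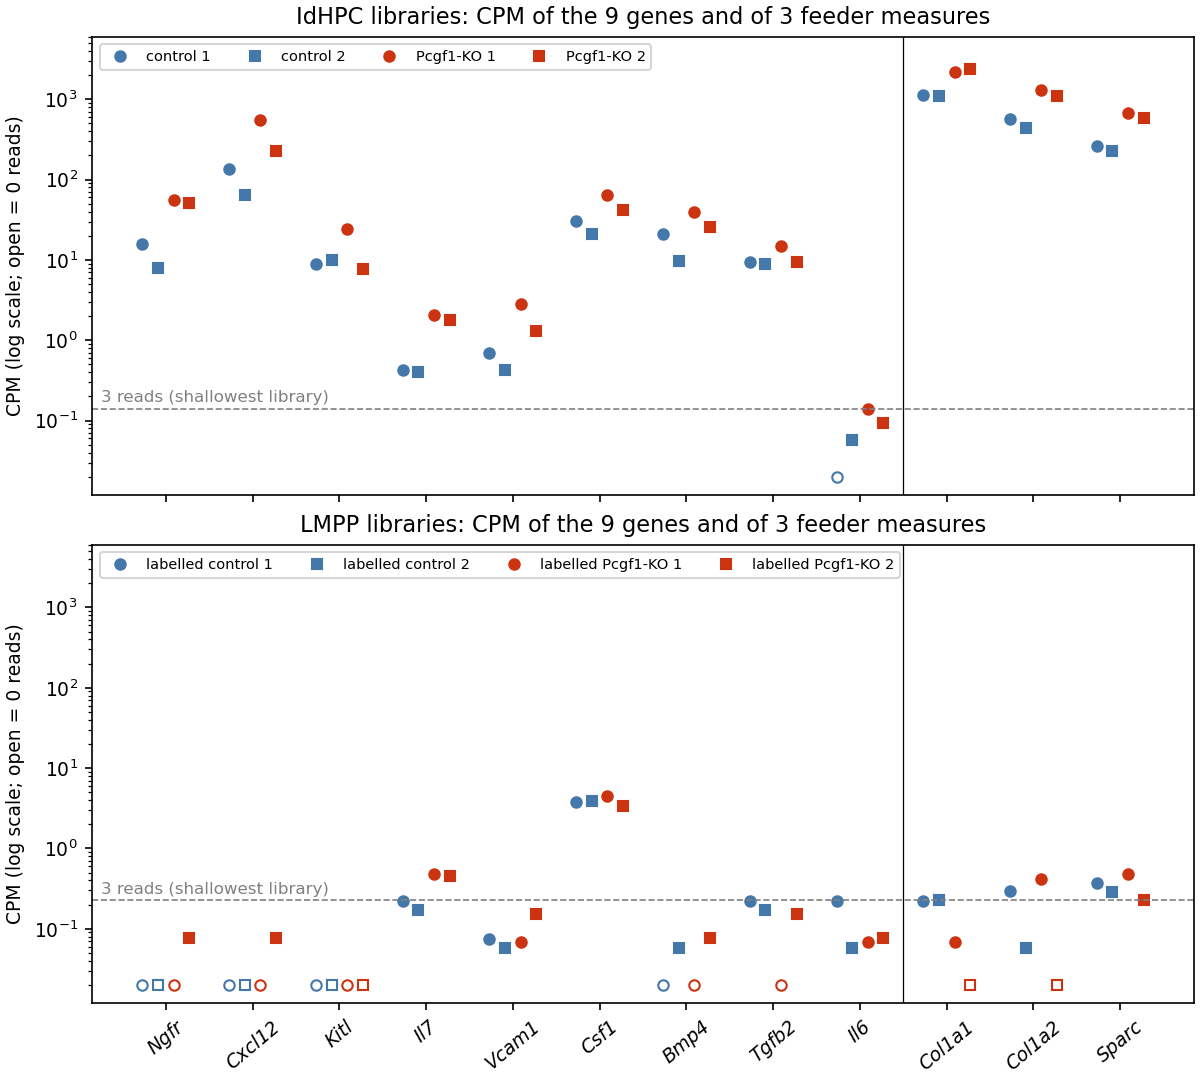
CPM (log scale) of the 9 genes and of the feeder measures *Col1a1*, *Col1a2* and *Sparc* in each IdHPC library (top) and LMPP library (bottom), controls in blue and *Pcgf1*-KO in red by label. Open symbols stand for 0 reads and the dashed line for 3 reads in the shallowest library. In IdHPCs 7 of 8 genes above the floor have both *Pcgf1*-KO libraries over both controls, beside 25.6% of the 12273 genes tested. This contrast chose the members, so nothing is read from that count. In LMPPs only *Csf1* is well above the line.

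Levels can be set beside each other only per length. Over the CPM per kb of listed exons, the order in control IdHPCs was *Cxcl12* (13.4 and 6.41), *Bmp4* (10.3 and 4.75), *Csf1* (6.80 and 4.58), *Ngfr* (4.61 and 2.29), *Tgfb2* (1.97 and 1.87), *Kitl* (1.56 and 1.77), *Vcam1* (0.207 and 0.126), *Il7* (0.152 and 0.143) and *Il6*, which was at or under the floor. The controls of *Cxcl12* overlapped with those of *Bmp4* and of *Csf1*, as did those of *Bmp4* and *Csf1*, of *Csf1* and *Ngfr*, and of *Vcam1* and *Il7*. Taken over its 3 covered exons, *Ngfr* would stand first, beside *Cxcl12*.

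Among the 8 members above the floor, 7 had both *Pcgf1*-KO libraries over both controls, against 25.6% of the 12273 genes tested, but this contrast chose the members and nothing is read from that count. Stromal genes were taken as a measure of feeder RNA beside the members. *Col1a1*, which encodes the main chain of collagen I and is a product of stromal cells, had 1131 and 1100 CPM in control IdHPCs and 2185 and 2386 in *Pcgf1*-KO, a log2 fold change of 1.03 (0.95 to 1.12). *Col1a2*, the partner chain, rose by 1.27 and *Sparc*, a matrix protein, by 1.36 on the log2 scale, the former from 562 and 434 CPM to 1311 and 1087, the latter from 264 and 230 to 680 and 588.

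Of the 20 stromal markers, 18 had reads in IdHPCs, and *Lum* and *Dcn* were at 0 in all 4 libraries. Their summed level was 4034 and 3570 CPM in control IdHPCs and 8184 and 6412 in *Pcgf1*-KO. Of the 17 tested, 3 were called higher (*Col1a2*, *Sparc* and the collagen chaperone *Serpinh1*) and 0 lower at an adjusted p under 0.05 in limma's test, beside 0.269% of all genes called higher and 0.261% called lower, 16 had both *Pcgf1*-KO libraries above both controls (25.6% of all genes tested), and the median log2 fold change was 0.96, beside 0.01 over all genes tested. The exception was *Lox*, a collagen cross-linking enzyme, with 380 and 346 CPM in control IdHPCs and 606 and 220 in *Pcgf1*-KO. The calls of *Col1a2*, *Sparc* and *Serpinh1* were lost without control 2 (limma adjusted p = 0.576, 0.303 and 0.476), without a filter (0.216, 0.178 and 0.195), without the variance trend and without the exon at the 3′ end. Those of *Col1a2* and *Sparc* were also lost without control 1, and that of *Col1a2* with the stricter filter and with all listed exon rows. Progenitor markers had a summed level of 927 to 1218 CPM in the 4 libraries with the 2 groups overlapping, and none was called. *Ptprc*, the pan-leukocyte marker CD45, had 258 and 327 CPM in control and 218 and 159 in *Pcgf1*-KO IdHPCs (log2 fold change -0.64, limma adjusted p = 0.248), and the log2 fold change of *Cd34* was 0.97 (adjusted p = 0.0856). The Schwann and neural crest marker *Sox10* had no read. The stromal markers, taken as a measure of feeder RNA, and most members were thus higher in the same libraries. Which part of this RNA came from feeder cells and which from IdHPCs cannot be told apart in the sum of both cell types.

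Against *Col1a1*, *Ngfr* was higher in *Pcgf1*-KO by more in every pair: its log2 fold change exceeded that of *Col1a1* by 1.11 (0.53 to 1.69, 4 of 4 pairs). Per 1000 CPM of *Col1a1* it had 14.1 and 7.16 CPM in control IdHPCs and 25.6 and 21.2 in *Pcgf1*-KO. The log2 fold change of *Cxcl12* exceeded that of *Col1a1* by 0.87 on average, but in 3 of 4 pairs only (-0.34 to 2.07), with 118 and 58.5 CPM per 1000 CPM of *Col1a1* in the controls and 249 and 93.9 in *Pcgf1*-KO, so that the groups overlapped.

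*Il7*, *Vcam1*, *Csf1* and *Bmp4* had log2 fold changes within 0.10 of that of *Col1a1*: the mean differences were 0.02, -0.10, -0.02 and 0.05, and each of them was above *Col1a1* in 2 of 4 pairs. At the low levels of *Il7* and *Vcam1* the log2(CPM + 1) scale damps differences, and with a pseudocount of 0.1 their differences from *Col1a1* were 0.94 and 0.61. As a plain ratio *Il7* had 0.379 and 0.365 CPM per 1000 CPM of *Col1a1* in the controls and 0.948 and 0.749 in *Pcgf1*-KO, with no overlap, whereas *Vcam1* had 0.623 and 0.391 against 1.30 and 0.552, which overlapped. *Kitl* and *Tgfb2* had lower log2 fold changes than *Col1a1*, with mean differences of -0.51 and -0.68. For *Tgfb2* all 4 pairs were below *Col1a1* (-1.08 to -0.29) and its ratio to *Col1a1* was 8.23 and 8.02 per 1000 in the controls and 6.85 and 3.90 in *Pcgf1*-KO, whereas for *Kitl* 2 pairs were above and 2 below.

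As plain ratios to *Col1a1*, *Ngfr* and *Il7* thus had both *Pcgf1*-KO libraries above both controls and *Tgfb2* both below. Over the 12272 other genes tested, 2.17% had such a ratio above and 85.0% below, since the denominator itself was higher in *Pcgf1*-KO, and because the contrast chose the members nothing is read from their count. Among the stromal markers other than *Col1a1*, 3 of 16 had the ratio above, *Sparc* among them, and 3 below. With *Col1a2* as the measure in place of *Col1a1*, the excess of *Ngfr* was 0.87, with *Sparc* 0.79, and with the summed stromal markers 1.21. *Cxcl12* had 0.63, 0.54 and 0.97 by the same measures.

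**Figure D3:**
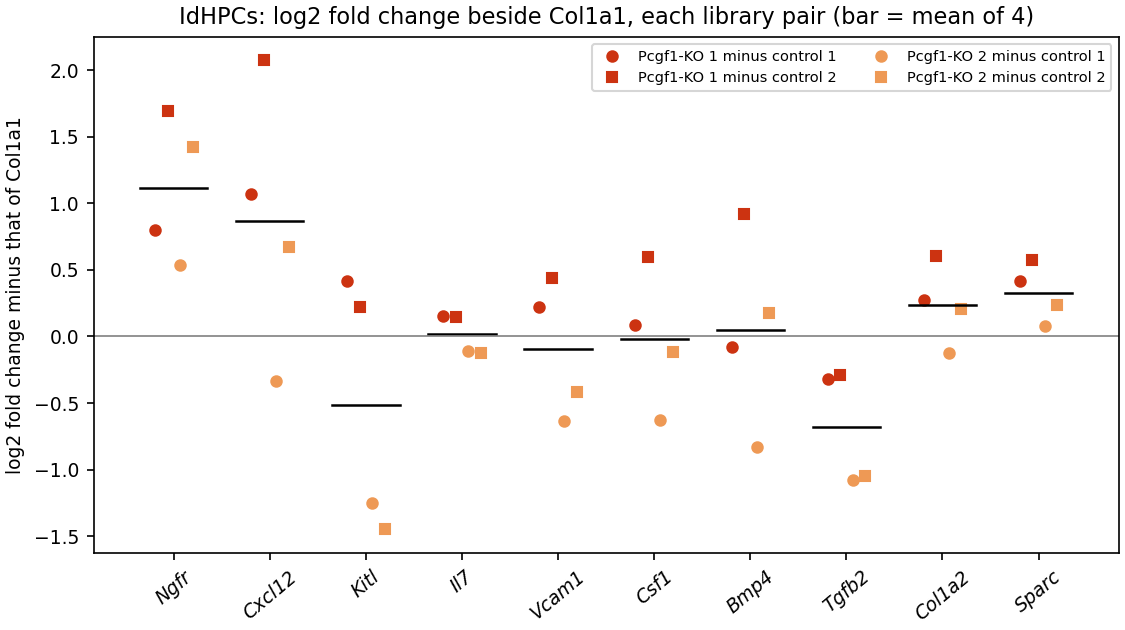
Log2 fold change of 8 members, *Col1a2* and *Sparc* minus that of *Col1a1* in IdHPCs, for each pair of a *Pcgf1*-KO and a control library (points) and as their mean (bar), on the log2(CPM + 1) scale; 0 is the value of *Col1a1*. *Ngfr* and the stromal marker *Sparc* lie above 0 in 4 of 4 pairs, and *Tgfb2* below it in 4 of 4.

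The genes whose pattern over the 4 IdHPC libraries was most like that of *Ngfr* were found by the root mean square difference of their mean-centered log2(CPM + 1) values, among 11807 genes with a mean of 1 CPM or more. They were the chemokine gene *Ccl2* (difference 0.13), *Mgp* (0.16), *Ptms* (0.21), the TWEAK receptor gene *Tnfrsf12a* (0.21), the collagen-processing *Pcolce* (0.23), the chromatin protein gene *Hmga2* (0.25), *Ccl9* (0.27), *Lgals3* (0.30), *Foxd1* (0.30) and *Ptrf* (0.31). *Ccl2* had 2.76 and 1.38 CPM in control IdHPCs and 13.5 and 10.1 in *Pcgf1*-KO, and *Hmga2* had 8.85 and 6.65 in the controls and 35.2 and 27.7 in *Pcgf1*-KO. *Col1a1* was 363rd in this order, with a difference of 0.65. The points are only 4 libraries, which also differ in depth and in RNA of stromal markers, so the order is a description.

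*Gas6* (0.23), the Wnt inhibitor gene *Wif1* (0.24) and *Foxd1* (0.25) were nearest to *Cxcl12*, and *Slc4a3* (0.016), *Fam69b* (0.024) and *Tubb3* (0.031) to *Il7*, for which *Col1a1* was 68th. *Sqrdl*, *Cd276* and *Laptm4b* were nearest to *Vcam1*, and *Zfp354c*, *Lphn2* and *Adamts12* to *Kitl*. The first of each 3 for *Csf1*, *Bmp4* and *Tgfb2* were *0610007N19Rik*, *Scara3* and *Rassf3*. *Foxd1* thus stood near both *Ngfr* and *Cxcl12*, with 4.04 and 1.46 CPM in control IdHPCs and 13.1 and 7.95 in *Pcgf1*-KO.

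The partners of these signals were measured from lists of ligands, receptors and other niche factors. None of the neurotrophin receptor partners and ligands listed for *Ngfr* was called: 5 of 10 were tested, with 0 higher and 0 lower. *Bdnf*, a neurotrophin that NGFR binds, had 4.81 and 3.44 CPM in control and 8.22 and 6.21 in *Pcgf1*-KO IdHPCs (log2 fold change 0.68, limma adjusted p = 0.328). *Ngfrap1*, whose product binds the intracellular part of NGFR, had 70.3 and 62.7 CPM in control IdHPCs and 94.2 and 109 in *Pcgf1*-KO (0.60, adjusted p = 0.232). The 5 had a median log2 fold change of 0.60, beside 0.01 over all genes.

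Of 18 receptor genes for the other members, 15 were tested in IdHPCs, again with 0 called higher and 0 lower. Their median log2 fold change was -0.10, and 4 had both *Pcgf1*-KO libraries above and 4 below both controls, beside 25.6% and 21.3% of all genes tested. *Itga4*, the alpha chain of the VCAM1 receptor, had 396 and 343 CPM in control IdHPCs and 244 and 86.9 in *Pcgf1*-KO (-1.33, limma adjusted p = 0.135), and its partner chain *Itgb7* had 104 and 74.6 against 39.4 and 24.8 (-1.46, adjusted p = 0.0516). *Itgb1*, the other beta chain that pairs with *Itga4*, had 173 and 187 against 233 and 161 (0.11, adjusted p = 0.865), with overlapping groups. *Cxcr4*, the receptor of CXCL12, had 53.7 and 51.4 CPM in control IdHPCs and 32.0 and 30.9 in *Pcgf1*-KO (-0.72, adjusted p = 0.164). In *Itga4*, *Itgb7* and *Cxcr4* the *Pcgf1*-KO libraries were below the controls, and none of them passed the test.

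*Kit* (29.6 and 51.4 against 53.8 and 39.1 CPM) and *Il7r* (60.0 and 83.8 against 55.6 and 47.0 CPM) were expressed in every IdHPC library. *Kit* overlapped between the groups, and *Il7r*, the receptor of IL7, was below both controls in both *Pcgf1*-KO libraries (-0.47, limma adjusted p = 0.413). *Csf1r*, the receptor of CSF1, had 3 to 15 reads (0.105 to 0.430 CPM). Among the TGF-beta family receptors, *Bmpr1a* had 4.96 and 3.78 CPM in control IdHPCs and 10.7 and 5.93 in *Pcgf1*-KO, and *Tgfbr2* had 55.0, 62.3, 72.9 and 40.5. Neither passed the test. Of 35 other niche factors, 19 were tested with 0 called in either direction and a median log2 fold change of 0.27. *Angpt1*, a ligand of TIE2, had 2.72 and 2.32 CPM in control IdHPCs and 11.1 and 4.19 in *Pcgf1*-KO, and *Tgfb3* had 14.0 and 25.6 against 7.90 and 9.32.

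**Figure D4:**
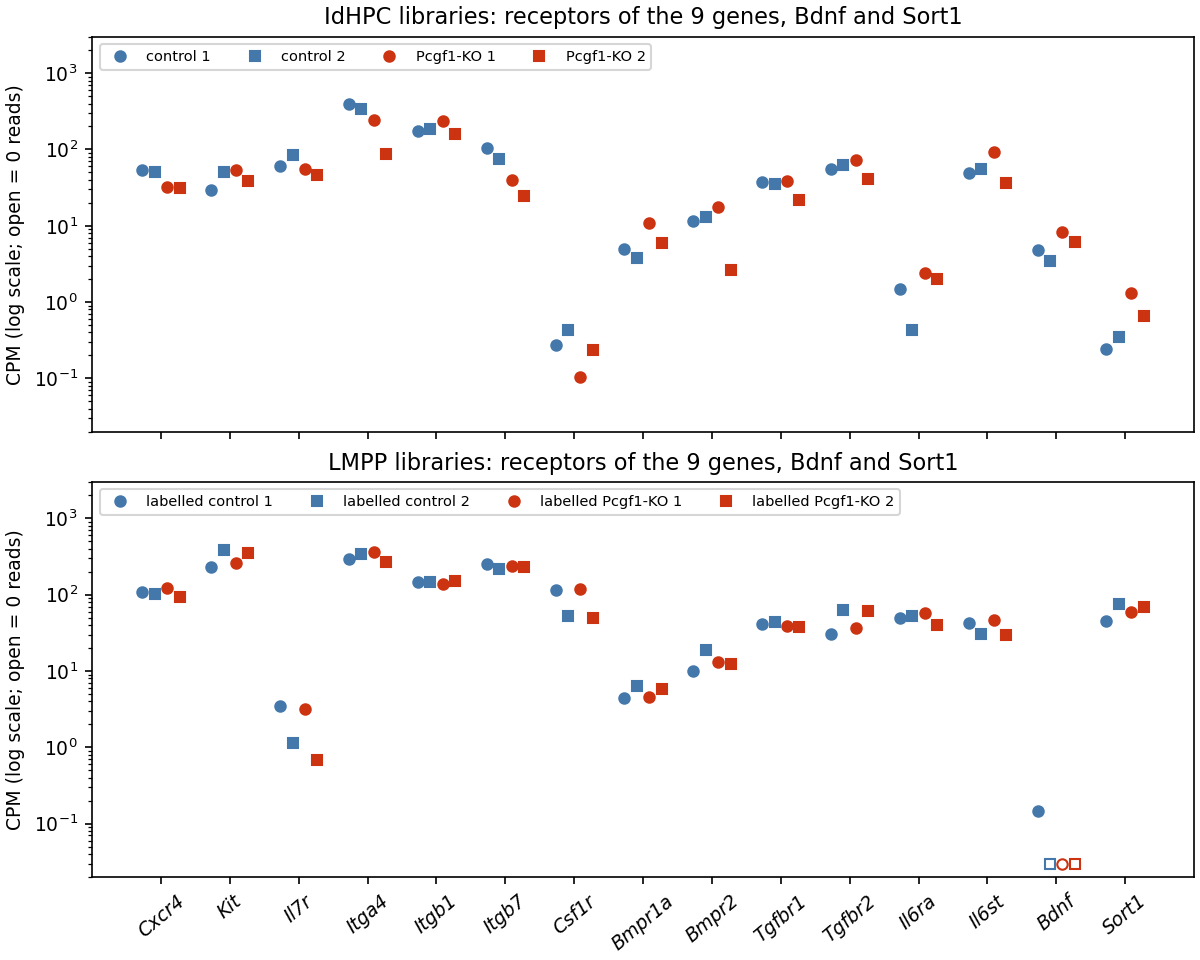
CPM (log scale) of receptors of the 9 genes, with the neurotrophin *Bdnf* and the NGFR partner *Sort1*, in each IdHPC library (top) and LMPP library (bottom), controls in blue and *Pcgf1*-KO in red by label, open symbols for 0 reads. In IdHPCs *Cxcr4*, *Itga4*, *Itgb7* and *Il7r* are lower in both *Pcgf1*-KO libraries. In LMPPs several genes (*Kit*, *Il7r* and *Csf1r* among them) separate by replicate number, which is also the division by reads on *Pcgf1* exons 2 to 7. Of all LMPP genes tested, 26.7% were above and 29.9% below in both libraries without such reads.

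In LMPPs the members other than *Csf1* were nearly absent. *Kitl* had 0 reads in all 4 libraries, where 3 reads, the floor, would have been 0.173 to 0.227 CPM. *Ngfr* and *Cxcl12* had 0 reads in 3 libraries and 1 read in the library labelled *Pcgf1*-KO 2. *Bmp4* had 0 or 1 read, *Vcam1* 1 or 2, *Tgfb2* 0 to 3 and *Il6* 1 to 3. The single *Ngfr* read was on exon 6, where IdHPCs had none. *Col1a1* had 0 to 4 reads and *Sparc* 3 to 7, although the labels give culture on stroma for these libraries too. The summed stromal markers had 74.2 to 128 CPM there, most of it from *Col4a1* (19.5 to 59.7 CPM), *Pdgfrb* (35.1 to 56.8) and *Mmp2* (up to 14.1), while *Col3a1*, *Col6a1*, *Postn*, *Lum* and *Dcn* were at 0 in all 4 libraries. The tables of IdHPCs and LMPPs were normalized apart, and the levels of both are set side by side without a test.

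*Il7* had 3 reads in each of the libraries labelled control and 7 and 6 in those labelled *Pcgf1*-KO (0.221 and 0.173 against 0.480 and 0.454 CPM). These do not overlap by label, as was so for 5.92% of the genes tested with *Pcgf1*-KO above and 6.3% below, but the controls are at the floor, and in tests of 2 against 2 libraries an exact 2-sided permutation test cannot go below p = 0.333. *Csf1* was the only member above the filter of 1 CPM. Its level was 3.83 CPM in the library labelled control 1, 3.91 in that labelled control 2, 4.46 in that labelled *Pcgf1*-KO 1 and 3.33 in that labelled *Pcgf1*-KO 2. The groups overlapped, and the log2 fold change by label was -0.00 (standard error 0.26, limma adjusted p = 1 over 12153 genes). In that test 0% of all genes were called in either direction, with 2 genes higher and 0 lower at an unadjusted p under 0.05.

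The libraries without reads on *Pcgf1* exons 2 to 7 were those labelled control 2 and *Pcgf1*-KO 2, so that this division is the same as that by replicate number and both cannot be told apart. It is not given by the labels and was not tested. *Csf1* had 3.91 and 3.33 CPM in the libraries without such reads and 3.83 and 4.46 in those with them, and the pairs overlapped. *Il7*, with 3 and 6 reads in the former and 3 and 7 in the latter, overlapped too. *Bmp4* had 1 read in each of the former and 0 in each of the latter, which is under the floor. Of all genes tested, 26.7% had both libraries without such reads above the others and 29.9% below, and no member above the floor was among them.

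Of the 18 receptor genes, 15 were above the filter in LMPPs. *Cxcr4* had 94.6 to 122.99 CPM, *Kit* 228 to 384, *Itga4* 268 to 366 and *Itgb7* 215 to 254, and *Csf1r*, nearly absent from IdHPCs, had 49.2 to 118. *Il7r* had 0.681 to 3.47. Of these 15, by label 0 were called higher and 0 lower, with a median log2 fold change of -0.05, beside -0.00 over all genes. *Csf1r* had 114 and 118 CPM in the libraries with reads on *Pcgf1* exons 2 to 7 and 52.9 and 49.2 in those without, and *Kit* 228 and 258 in the former against 384 and 352 in the latter. Other receptors of the list divided in this way too, and others, such as *Itga4* and *Itgb1*, overlapped. This division is also that by replicate number and was not tested. Of all genes tested, 26.7% were above and 29.9% below in both libraries without such reads.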

How the data were processed

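Poly(A) RNA-seq of 4 IdHPC and 4 LMPP libraries was analysed. The authors aligned the reads to mm9 and deposited CPM per exon for each cell type. The methods name HISAT2, Rsubread and edgeR, and the submitters' processing notes name TopHat2 (2.0.13) and edgeR. Groups followed the labels. All values were whole multiples (within 0.001 reads) of the CPM of 1 read, so that reads were recovered. Whether a read over 2 exons was counted on both is not stated. Of 220394 exons with reads, 58624 (26.6%) equalled the exon before them, in all 8 libraries and under the same symbol, and were dropped before exons were summed per symbol. Exon coordinates are those of GENCODE M1 (NCBIM37), matched to listed rows by number and order.

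limma (3.58.1, R 4.3.3) was fitted with a trended prior variance to log2(CPM + 1) of all genes with 1 CPM or more in at least 1 library, separately for each cell type, with Benjamini-Hochberg adjustment. Alternatives were edgeR (4.0.16) and DESeq2 (1.42.0) on the recovered reads, other pseudocounts, filters and scalings, the replicate number as a term, and each library left out. The fits were tested on simulated data. Among 12273 simulated IdHPC genes, 200 were given a log2 difference of 2, with a dispersion of 0.02 assumed, and limma recovered 200 and also called 14 unchanged genes. Reads are without molecular identifiers, so that floors cover counting error only, and p-values measure the spread between these libraries.

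The members, the marker and pathway lists and the tests were chosen with earlier results of these data known. Named genes are the members, *Col1a1*, *Col1a2*, *Sparc*, *Pcgf1*, the 10 genes nearest to *Ngfr* and up to 3 nearest to each other member, and pathway genes whose role is described. *Lox*, *Serpinh1*, *Col4a1*, *Pdgfrb*, *Mmp2*, *Col3a1*, *Col6a1*, *Postn*, *Lum*, *Dcn*, *Sox10*, *Ptprc*, *Flt3*, *Cd34* and *Gm15217* were named after their values were seen. The lists of progenitor, mature myeloid, B, erythroid, endothelial and Schwann cell markers had 0 called genes in either cell type, and of the T cell markers 0 were above the filter. The other experiments of the study were not analysed here. Some genes of the pathway lists are not reported here.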

Additional observations from a re-analysis of the deposited data

How the results depend on the processing

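In IdHPCs limma called 33 genes higher and 32 lower. Without a filter it called 0 and 0 (1359 and 637 at an unadjusted p under 0.05). With the filter, edgeR's quasi-likelihood test called 77 higher. The calls were, with the replicate block 484 and 185, with edgeR's exactTest 451 and 159, with DESeq2 344 and 153, with all listed exons 19 higher, and without the exon at the 3′ end, an alternative chosen after seeing the data, 0 and 3 (550 and 382 unadjusted). With 1 library left out the counts ran from 0 to 234 higher and from 14 to 591 lower, with 0 higher without control 2, 234 higher and 591 lower without *Pcgf1*-KO 1, and 169 higher and 61 lower without *Pcgf1*-KO 2. In LMPPs the replicate block called 3 genes higher, 0 of them members, and every other setting called 0. The replicate numbers, with 2 pairs, correlated at 0.15 (IdHPCs) and 0.71 (LMPPs) in their deviations and were not taken as pairs. The log2 fold change of *Ngfr* lay between 1.68 and 2.61 in 15 alternatives, and that of *Kitl* between -0.25 (without *Pcgf1*-KO 1) and 1.29 (without *Pcgf1*-KO 2). On the log2(CPM + 1) scale 1 member, *Ngfr*, stood above *Col1a1* in both *Pcgf1*-KO libraries against both controls. That number was 2 with the summed stromal markers or a pseudocount of 0.1, and 1 to 6 with 1 library left out (3 without control 1, 6 without *Pcgf1*-KO 2). The number of members with both *Pcgf1*-KO libraries over both controls was 7, beside 25.6% of all genes tested. It was 5 without the exon at the 3′ end, and 7 to 8 with 1 library left out. Shares over all genes were not taken for these alternatives, and with 1 library left out a group is a single library. The contrast chose the members, so nothing is read from this count or from that beside *Col1a1*. The depth of the LMPP libraries limits any statement on members under 3 reads.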
